A study of Mus musculus with 14 samples.

Results

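The genes described here were Slurp1 and 8 genes of the mouse Ly6 cluster on chromosome 15, namely Ly6a, Ly6c1, Ly6c2, Ly6d, Ly6e, Ly6g, Ly6i and Ly6k. They were chosen by name, with earlier results of these data known, and all 9 were found among the 53801 gene identifiers in the files. Their RNA was measured in 14 bulk CT26 tumors, CT26 being a colon carcinoma cell line of BALB/c mice, here carrying a library of heritable DNA barcodes. Tumors were grown under the skin of both flanks of female BALB/c mice aged 6 to 8 weeks, from 250000 cells per flank, and 11 mice gave the tumors sequenced. From day 7 the mice received 5 doses of 200 µg of control IgG or of an antibody against PD-1, an inhibitory receptor of T cells, at intervals of 3 days, and tumors were taken 3 days after the last dose. The 5 control IgG tumors (14L, 14R, 16R, 17R and 20R) came from 4 mice. The anti-PD-1 tumors were divided by their final size relative to the control tumors into 5 responders (24L, 26R, 30L, 30R and 35L, from 4 mice) and 4 non-responders (29L, 32R, 33L and 33R, from 3 mice). The number in a name is the mouse and the letter the flank, so that mice 14, 30 and 33 each gave a pair of tumors. Because size defined the groups, response and tumor size cannot be told apart.

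Ly6 genes encode small disulfide-rich proteins with the three-finger fold of the Ly6/uPAR domain, most of them held on the cell surface by a glycosylphosphatidylinositol anchor. Ly6a (Sca-1) and Ly6e are inducible by interferon, Ly6c1 and Ly6c2 form the Ly6C antigen of monocytes, endothelium and some T cells, Ly6g is the classical surface marker of neutrophils, and Ly6d is made by keratinocytes and early B cells. Slurp1 lacks the anchor and is secreted, chiefly by keratinocytes, and acts on nicotinic acetylcholine receptors. A tumor taken from under the skin can carry epidermis, so the skin keratins were measured beside every member.

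The 9 genes lay within one stretch of chromosome 15 of the mm10 build. Slurp1 (ENSMUSG00000022596) was at 74724318 to 74728034, Ly6d (ENSMUSG00000034634) at 74762056 to 74763620 and Ly6k (ENSMUSG00000044678) at 74796874 to 74799986, all on the minus strand. Ly6e (ENSMUSG00000022587) was at 74955051 to 74959905 on the plus strand. Ly6i (ENSMUSG00000022586) was at 74979534 to 74983430, Ly6a (ENSMUSG00000075602) at 74994877 to 74998031, Ly6c1 (ENSMUSG00000079018) at 75044018 to 75048830 and Ly6c2 (ENSMUSG00000022584) at 75108158 to 75111970, again on the minus strand. Ly6g (ENSMUSG00000022582) was at 75155240 to 75159126 on the plus strand.

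Several of these genes are close copies, which bears on how reads can be divided among them. The first 120 coding bases of 5 members are shown because they make that likeness visible. They are taken from the principal GENCODE transcript, begin at the start codon, and have in capitals the bases that differ from Ly6c1.

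Ly6c1: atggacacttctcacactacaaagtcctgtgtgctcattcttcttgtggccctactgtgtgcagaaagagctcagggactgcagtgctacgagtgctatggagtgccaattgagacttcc

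Ly6c2: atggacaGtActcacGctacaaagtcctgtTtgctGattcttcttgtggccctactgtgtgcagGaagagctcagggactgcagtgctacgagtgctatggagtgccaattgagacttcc

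Ly6a: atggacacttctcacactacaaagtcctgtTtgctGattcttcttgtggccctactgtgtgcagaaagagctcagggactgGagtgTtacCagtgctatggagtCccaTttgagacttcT

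Ly6i: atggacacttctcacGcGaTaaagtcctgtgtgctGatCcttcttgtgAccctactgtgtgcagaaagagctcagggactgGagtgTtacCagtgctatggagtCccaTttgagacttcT

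Ly6g: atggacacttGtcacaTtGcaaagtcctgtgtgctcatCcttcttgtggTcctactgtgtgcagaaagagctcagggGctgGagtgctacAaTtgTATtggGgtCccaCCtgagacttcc

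Ly6c2 differed from Ly6c1 at 6 of these bases, Ly6a at 8, Ly6i at 12 and Ly6g at 16. Over whole coding sequences Ly6c1 and Ly6c2 were 97.7% identical, Ly6a and Ly6i 86.3%, Ly6a and Ly6g 83.1% and Ly6a and Ly6c1 81.8%, whereas Slurp1 was 44.0% to 49.7% identical to each of the others. Of the stretches of 150 bases in the Ly6c1 transcripts, 2.29% also occurred unchanged in Ly6c2, and no other pair of members shared one. At 75 bases 14.7% of the Ly6c1 stretches occurred in Ly6c2 and 4.37% in Ly6a. The values of Ly6c1 and Ly6c2 therefore carry an uncertainty of assignment, and their sum was tested as well.

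Promoters were given in the RefSeq table (GRCm38.p6) for 3 of the 9 members, Ly6c1, Ly6c2 and Ly6g. The 250 bases before each RefSeq start are shown because Ly6c1 and Ly6c2 moved together in the tumors while Ly6g stayed near 0 counts. They were chr15:75048838-75049087 and chr15:75111972-75112221 on the minus strand and chr15:75155011-75155260 on the plus strand. The Ly6g window runs past the GENCODE start of that gene, 75155240. Capitals mark runs of 12 or more bases that Ly6c1 and Ly6c2 have in common and, in Ly6g, those in common with Ly6c1.

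Ly6c1: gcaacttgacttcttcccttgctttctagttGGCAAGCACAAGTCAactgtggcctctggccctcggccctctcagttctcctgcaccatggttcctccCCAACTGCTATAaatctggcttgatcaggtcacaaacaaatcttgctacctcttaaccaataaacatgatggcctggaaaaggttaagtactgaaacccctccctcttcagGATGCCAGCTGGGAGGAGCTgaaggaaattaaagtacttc

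Ly6c2: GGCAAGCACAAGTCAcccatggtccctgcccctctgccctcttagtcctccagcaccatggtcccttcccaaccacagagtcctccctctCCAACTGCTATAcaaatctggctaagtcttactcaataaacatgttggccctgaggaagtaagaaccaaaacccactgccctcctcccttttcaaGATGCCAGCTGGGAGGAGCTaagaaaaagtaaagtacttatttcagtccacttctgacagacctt

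Ly6g: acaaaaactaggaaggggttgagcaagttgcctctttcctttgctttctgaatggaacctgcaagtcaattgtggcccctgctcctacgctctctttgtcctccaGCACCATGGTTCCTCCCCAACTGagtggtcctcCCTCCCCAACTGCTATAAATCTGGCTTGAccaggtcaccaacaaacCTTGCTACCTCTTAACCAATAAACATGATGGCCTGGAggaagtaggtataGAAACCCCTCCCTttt

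The Ly6c1 and Ly6c2 windows were 57.7% identical, with 47 of 250 bases in shared runs. The Ly6c1 and Ly6g windows were 58.5% identical, a like share, with 102 of the 250 Ly6g bases in shared runs. In the 300-base windows that run on to 50 bases after the start, both strands were searched for the interferon gamma-activated site TTCNNNGAA, the interferon-stimulated response element core GAAANNGAAA and the glucocorticoid response element GNACANNNTGTNC. These were present in 8.3%, 3.44% and 0.475% of the 32851 promoters in the table and in none of these 3 windows. At such shares no match in 3 windows is the likely outcome for each motif, so no conclusion is drawn from it.

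The libraries held between 33237744 and 48481461 expected counts. Levels of one gene across tumors are given as CPM, the counts scaled to a common library size, and levels between genes as TPM, which also corrects for transcript length. Tumor 33R stood apart in its short genes, the tenth of tested genes with the shortest transcripts lying at a median of 0.48 above their mean over all tumors on the log2 scale, against -0.12 to 0.14 in the other tumors. Calls that change without it are given beside the counts and genes they touch. Ly6g and Ly6k were hardly detected. Ly6g had between 0 and 5 expected counts and Ly6k between 0 and 6 in any tumor, where 3 counts, the limit that a count of 0 allows, corresponded to between 0.0596 and 0.095 CPM. Both were under the filter on low counts, and 7 of 9 members passed it. Ly6e had the highest mean over the 14 tumors with 2049 TPM, or 65.8% of the summed TPM of the members. Ly6a followed with 690 TPM, Ly6c1 with 281 TPM and Ly6c2 with 61.6 TPM. In all 14 tumors Ly6e was above Ly6a, Ly6a above Ly6c1 and Ly6c1 above Ly6c2. Ly6d with 15.6 TPM and Slurp1 with 13.2 TPM had no fixed order, Ly6d being the higher in 8 of 14 tumors. Ly6i had a mean of 1.44 TPM.

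The main comparison asked which members differed between anti-PD-1-treated tumors that responded and those that did not. Slurp1, Ly6a, Ly6c1 and Ly6c2 had higher levels in responders, by 1.9-fold to 2.96-fold relative to non-responders. Against control IgG tumors the same 4 genes were higher in responders by 2.44-fold to 4.22-fold, and Ly6i by 6.25-fold. Ly6e, the most abundant member, and Ly6d, the keratinocyte member, were called in neither comparison. No member was called between non-responders and control IgG tumors. Thus 4 of the 7 tested members were called higher against non-responders, where 5.08% of the 16287 genes tested were called higher and 9.9% in either direction. Against control IgG 5 of 7 were called higher, where 7.88% of genes were called higher and 13.2% in either direction. Ly6i, counted among these 5, did not pass the filter on low counts in a fit of only non-responders and controls. Its place among the 7 tested members thus depends on its level in responders. Members were chosen with earlier results of these data known, so these shares are a description and no test of the set. Calls were made by edgeR's quasi-likelihood test at an adjusted p under 0.05, with Benjamini-Hochberg adjustment over all genes tested. Without 24L, 30L or 32R only Ly6a and Ly6c1 were called against non-responders, and 2.11%, 3.57% and 2.11% of all genes were called higher. The calls over all genes were 827 higher and 785 lower against non-responders and 1284 and 863 against controls. These totals rested on single tumors, the 1612 against non-responders becoming 569 without 24L, 615 without 32R, 686 without 30R and 793 without 33R. The 2147 against controls became 1190 without 20R, 1192 without 24L, 1387 without 30R and 3385 without 33R. On deposited TPM (limma on log2(TPM + 1), 17942 genes tested) they were 1826 higher and 183 lower, and 1470 and 291. These were 11.2% and 9.81% of the genes in either direction, and 10.2% and 8.19% higher. The median log2 fold change of all genes was 0.158 and 0.0821. On this scale 6 of 7 members were called in each comparison, Ly6e and Ly6i among them. Both comparisons use the same responder tumors. Nothing says that tumors of one mouse varied independently, and a fit with mouse as a random effect is among the alternatives.

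**Figure D1:**
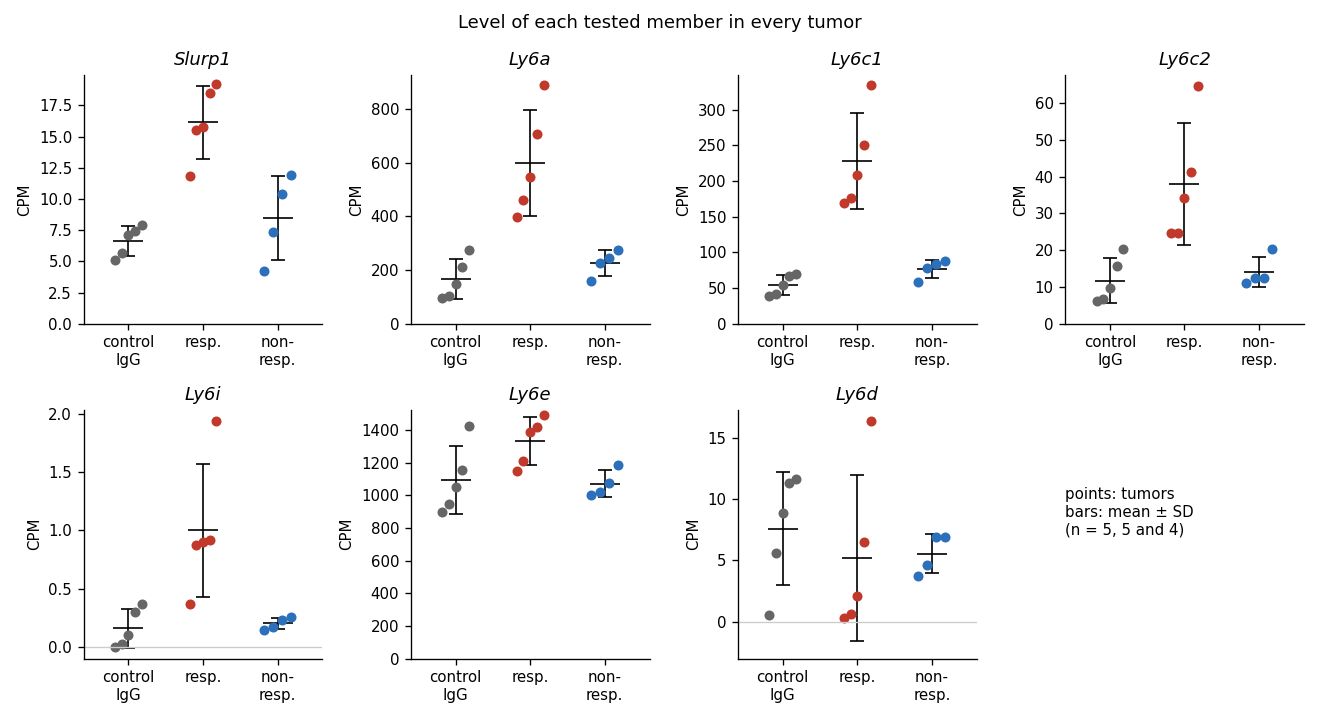
CPM (vertical axis) of the 7 tested members in each tumor, by group; each point is a tumor and the bars are the mean ± SD (n = 5 control IgG, 5 responder and 4 non-responder tumors). Responder tumors of Ly6a, Ly6c1, Ly6c2 and Ly6i lie above every other tumor, those of Slurp1 touch the highest non-responder, and those of Ly6d span the whole range.

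Slurp1, the secreted member, was between 5.11 and 7.88 CPM in control IgG tumors (5.11 in 14L, 5.69 in 14R, 7.88 in 16R, 7.4 in 17R and 7.08 in 20R). In responders it was 18.5 in 24L, 15.5 in 26R, 19.2 in 30L, 11.8 in 30R and 15.8 CPM in 35L. In non-responders it was 11.9 in 29L, 10.4 in 32R, 4.25 in 33L and 7.38 CPM in 33R. Every responder was above every control tumor, but the lowest responder, 30R, was just under the highest non-responder, 29L. Both tumors of mouse 33 were low. The group means were 16.2 ± 2.9 CPM (SD, n = 5) in responders, 8.5 ± 3.41 (n = 4) in non-responders and 6.63 ± 1.18 (n = 5) in controls. The log2 fold change of Slurp1 in responders was 0.93 (SE 0.25, edgeR adjusted p = 0.032) relative to non-responders and 1.28 (SE 0.23, edgeR adjusted p = 0.00319) relative to controls. Against non-responders this call was lost without 24L (edgeR adjusted p = 0.0786), 30L (0.0618), 32R (0.0531) or 33R (0.0759), and with only the 2 groups in the fit (0.0714). The log2 fold change stayed between 0.72 and 1.13 with any tumor of those 2 groups left out. Against controls the call was kept without any one tumor of the 2 groups compared (edgeR adjusted p from 0.0047 to 0.0106).

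Slurp1 has 2 transcripts in GENCODE, one of 567 bases and one of 2859 bases that reaches further and shares 322 exon bases with Them6, the neighbouring gene on the opposite strand, or 11% of the Slurp1 exon bases. Whether the libraries kept strand is not given in the sources used here, so reads in the shared stretch cannot be assigned to one gene with certainty. The deposited mean transcript length, weighted by abundance, placed the long transcript at 26% to 33.7% of Slurp1 TPM and 75.4% to 81.9% of its fragments over the 14 tumors, without a visible shift between groups. The short transcript, which lies outside Them6, was between 11.9 and 19.5 TPM in responders, between 4.1 and 10.3 TPM in non-responders and between 4.67 and 6.44 TPM in controls. On this scale its responder tumors did not overlap either group, and neither did those of Slurp1 as a whole, with 17.4 TPM in the lowest responder and 14.4 TPM in the highest non-responder, unlike in CPM. The long transcript was between 4.71 and 7.12 TPM in responders, between 1.5 and 4.15 TPM in non-responders and between 1.81 and 2.83 TPM in controls. The split assumes that reads were quantified on these 2 GENCODE transcripts, and the annotation used is not named in the sources used here. These transcript values divide one estimate per tumor and were not tested. Them6 itself was 24.8 ± 2.45 CPM in responders, 25.5 ± 6.29 in non-responders and 18.8 ± 1.09 in controls, and was called in no comparison. Its log2 fold change in responders was -0.04 against non-responders and 0.40 against controls (edgeR adjusted p = 0.88 and 0.0535). Its responder tumors did not overlap the controls.

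**Figure D2:**
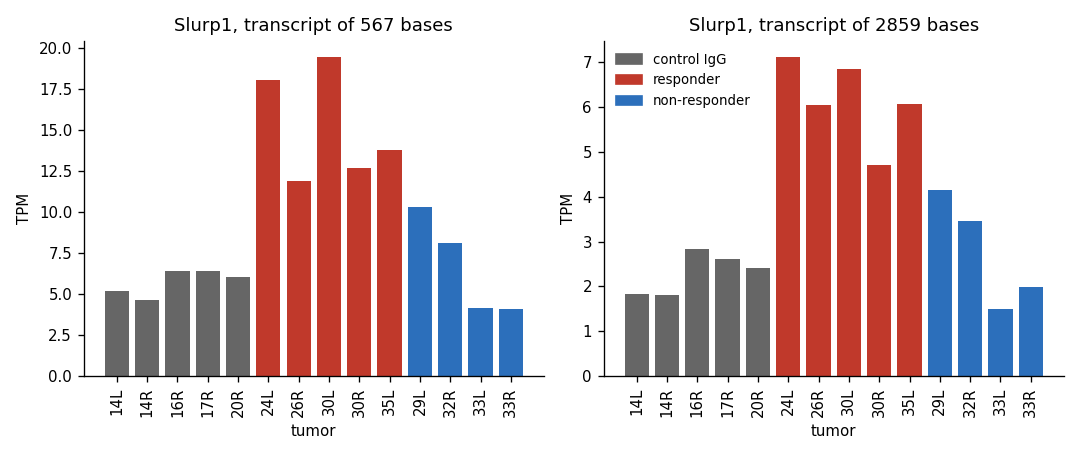
TPM (vertical axis) of the short and the long Slurp1 transcript in each tumor (horizontal axis), with bars coloured by group. Values were computed from the deposited gene TPM and mean transcript length, assuming the 2 GENCODE transcripts. In both panels every responder bar is above every bar of the other groups, and the 2 panels have different scales.

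Ly6a, the Sca-1 antigen, was 212, 273, 102, 148 and 97.3 CPM in control tumors 14L, 14R, 16R, 17R and 20R. In responders it was 887 in 24L, 460 in 26R, 705 in 30L, 545 in 30R and 396 CPM in 35L, and in non-responders 227 in 29L, 245 in 32R, 159 in 33L and 275 CPM in 33R. The lowest responder was above all 9 other tumors. The log2 fold change was 1.40 (SE 0.32, edgeR adjusted p = 0.0178) against non-responders and 1.85 (SE 0.30, edgeR adjusted p = 0.00189) against controls. Both calls held under all 9 alternatives and with each tumor of the 2 groups compared left out. Between non-responders and controls it was 0.45 with an interval from -0.20 to 1.10.

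Ly6c1 gave the smallest adjusted p of the members. It was 66.3, 69.1, 41, 54.8 and 39.2 CPM in control tumors 14L, 14R, 16R, 17R and 20R. In responders it was 334 in 24L, 176 in 26R, 251 in 30L, 209 in 30R and 169 CPM in 35L, and in non-responders 87.3 in 29L, 83.8 in 32R, 58.4 in 33L and 78.3 CPM in 33R. Responders did not overlap the other groups, with a log2 fold change of 1.57 (SE 0.23, edgeR adjusted p = 0.00475) against non-responders and 2.08 (SE 0.21, edgeR adjusted p = 0.000252) against controls. Between non-responders and controls Ly6c1 had a log2 fold change of 0.51 and an unadjusted p of 0.034 in edgeR, and the adjusted p was 0.931. In that comparison edgeR called 0% of all genes, with 758 of 16287 at an unadjusted p under 0.05, and DESeq2 called 16, no member among them.

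Ly6c2, the Ly6C gene typical of inflammatory monocytes, was in every tumor below its near-copy Ly6c1. It was 15.7, 20.4, 6.27, 9.69 and 6.64 CPM in control tumors 14L, 14R, 16R, 17R and 20R. In responders it was 64.7 in 24L, 24.6 in 26R, 41.3 in 30L, 34.1 in 30R and 24.6 CPM in 35L, and in non-responders 11.1 in 29L, 12.4 in 32R, 12.5 in 33L and 20.2 CPM in 33R. The lowest responders, 26R and 35L, were close to the highest tumors of the other groups, 14R and 33R. The log2 fold change was 1.43 (SE 0.37, edgeR adjusted p = 0.0301) against non-responders and 1.69 (SE 0.35, edgeR adjusted p = 0.00665) against controls. Against non-responders the call was lost when 24L (log2 fold change 1.15, edgeR adjusted p = 0.0804), 29L (0.0547), 30L (0.0519), 30R (0.0551), 32R (0.0788) or 33L (0.0527) was left out. Ly6c1 and Ly6c2 summed were called in both comparisons.

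Ly6i, a close copy of Ly6a, had few counts outside the responders. Its expected counts were 13, 14, 4, 0 and 1 in control tumors 14L, 14R, 16R, 17R and 20R, and 6, 10, 6 and 8 in non-responders 29L, 32R, 33L and 33R. In responders they were 84 in 24L, 31 in 26R, 33 in 30L, 46 in 30R and 17 in 35L. In CPM the lowest responder, 35L with 0.371, was just above the highest control, 14L with 0.369. The log2 fold change was 2.64 (SE 0.66, edgeR adjusted p = 0.0177) against controls, and without 24L it was 2.26 with an adjusted p of 0.0549. Against non-responders it was 2.30 (SE 0.70, edgeR adjusted p = 0.0515) and not called, although the groups did not overlap, and 6 of 9 alternatives gave an adjusted p under 0.05.

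The call of Ly6e depended on the processing. Its level was between 895 and 1423 CPM in controls with a median of 1049, between 1151 and 1494 in responders with a median of 1389, and between 1003 and 1185 in non-responders with a median of 1046. All groups overlapped. The log2 fold change was 0.32 (interval 0.04 to 0.59, edgeR adjusted p = 0.124) against non-responders and 0.28 (interval 0.03 to 0.54, edgeR adjusted p = 0.135) against controls. On log2(TPM + 1) the first was 0.55 (limma adjusted p = 0.0194), where the median of all genes was 0.158. With a gene length trend removed the differences were 0.47 (edgeR adjusted p = 0.0267) and 0.36 (edgeR adjusted p = 0.0435), and without control 14R the difference from controls was 0.40 (edgeR adjusted p = 0.0228).

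Among the tested members, responders were without overlap above non-responders for 4 of 7 and above controls for 5 of 7. Ly6i, which passed the filter only with the responders in the fit, is in both counts. Over all genes tested, the groups did not overlap, in either direction, for 12.8% and 15.1%. The median log2 fold change of the 7 members was 1.40 against non-responders and 1.69 against controls, beside 0.0062 and -0.0105 over all genes. Ly6i, the highest of the 7 with 2.30 and 2.64, is in these medians too and raises them. Since Ly6a, Ly6c1, Ly6c2 and Ly6i are close copies and neighbours, they are not independent of each other.

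**Figure D3:**
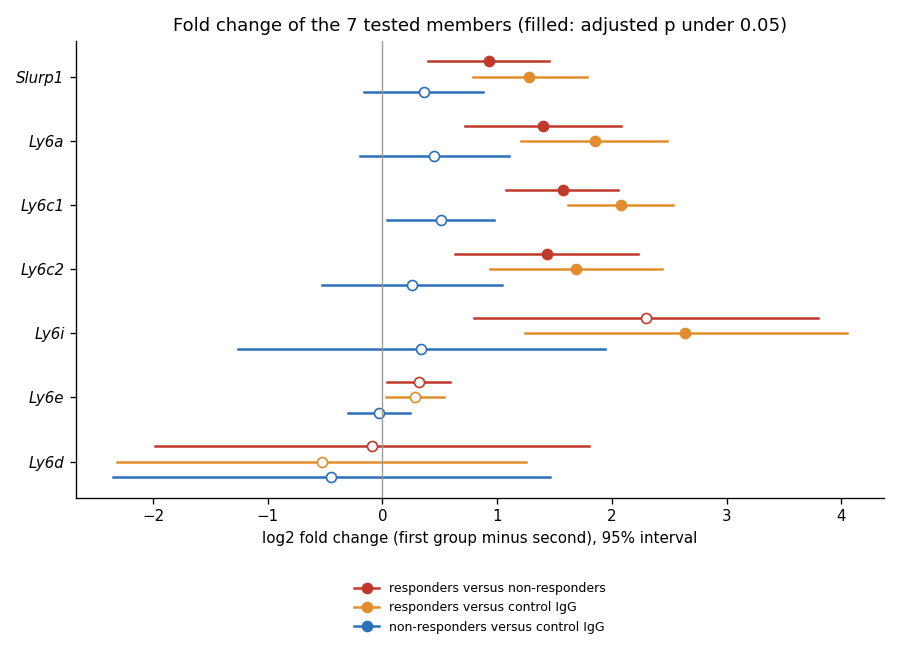
Log2 fold change (horizontal axis, first group minus second) of the 7 tested members with its 95% interval in 3 comparisons; filled points are called at an adjusted p under 0.05 by edgeR. The called points are Slurp1, Ly6a, Ly6c1 and Ly6c2 in both responder comparisons and Ly6i against control IgG, and the intervals of Ly6d are the widest in each comparison.

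For Ly6g and Ly6k, two-sided exact permutation tests of log2 CPM over the tumors gave p from 0.317 to 0.73, and 0.73 after adjustment over the 6 tests. With 0 to 6 counts per tumor, these p-values do not show that the groups were alike. The neutrophil list, in contrast, was present in every tumor, with a summed level between 42.9 and 109 CPM in responders, between 46.3 and 148 CPM in non-responders and between 45.3 and 109 CPM in controls.

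Ly6d varied with the skin keratins and was not called between groups. It was 11.6, 0.576, 11.3, 5.62 and 8.84 CPM in control tumors 14L, 14R, 16R, 17R and 20R. In responders it was 2.1 in 24L, 0.612 in 26R, 0.317 in 30L, 16.4 in 30R and 6.52 CPM in 35L, and in non-responders 4.66 in 29L, 6.9 in 32R, 6.88 in 33L and 3.74 CPM in 33R. The lowest and the highest tumor of the series were the left and right tumor of the same mouse, 30. The log2 fold change of Ly6d was -0.09 (SE 0.88, interval -1.98 to 1.80) against non-responders and -0.53 (SE 0.83, interval -2.31 to 1.25) against controls, and the groups overlapped in both.

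The 8 skin keratins (Krt1, Krt2, Krt5, Krt10, Krt14, Krt15, Krt77 and Krt79) summed to between 7.56 and 702 CPM in controls, between 12.2 and 975 CPM in responders and between 134 and 287 CPM in non-responders. Their mean log2 level was 6.79 in responders, 7.88 in non-responders and 7.82 in controls, a difference smaller than the spread among controls or responders, and two-sided exact permutation tests did not separate the groups (p from 0.389 to 1, adjusted p from 0.833 to 1). Over the 11 mice, with tumors of a mouse averaged, Ly6d correlated with the summed keratins on the log2 scale (Pearson r = 0.946, permutation p = 6e-05, adjusted p = 0.0009, and Spearman rho = 0.918, permutation p = 0.0002, adjusted over 15 relations 0.003). Without the 2 mice farthest from the median r was 0.911, and with group means removed it was 0.926. In mice 14 and 30 the 2 flanks differed likewise. In mouse 14 the keratins were 92.9 times as high in 14L as in 14R and Ly6d 20 times, while Slurp1, Ly6a, Ly6c1, Ly6c2, Ly6e and Ly6i differed by at most 1.3 times. In mouse 30 the keratins were 80.2 times as high in 30R as in 30L and Ly6d 51.7 times, while Slurp1 was 1.62 times as high in 30L, the tumor with less keratin. In mouse 33 Ly6d did not stand apart, the keratins being 2.14 times and Ly6d 1.84 times as high in 33L as in 33R, and Slurp1 1.74 times, Ly6a 1.73 times and Ly6c2 1.62 times as high in 33R.

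**Figure D4:**
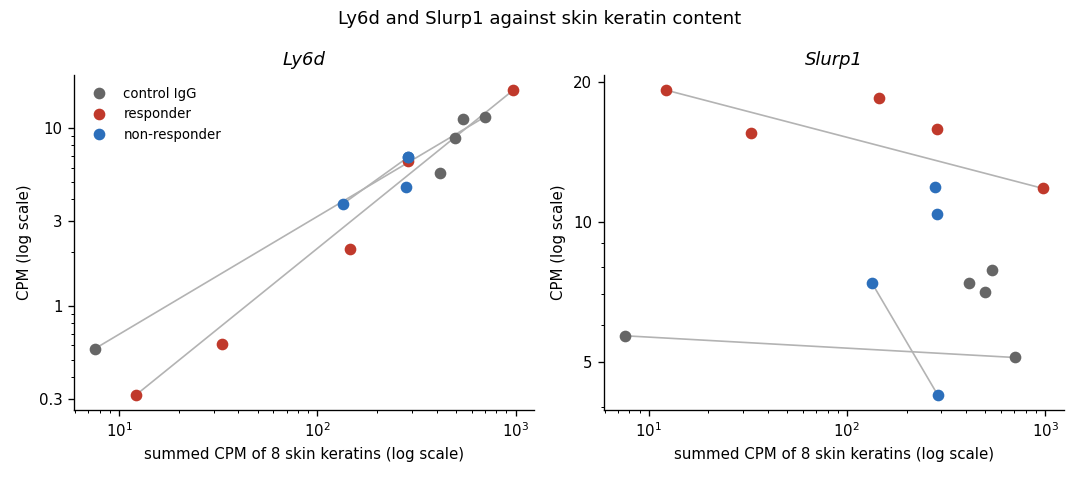
CPM of Ly6d (left) and Slurp1 (right) against the summed CPM of 8 skin keratins, both axes on a log scale; each point is a tumor, coloured by group, and grey lines join the 2 tumors of mice 14, 30 and 33. Ly6d rises with the keratins from 0.317 to 16.4 CPM, whereas Slurp1 is 11.8 CPM or more in responders at both ends of the keratin range.

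Slurp1, also known from keratinocytes, was not tied to the keratins in this way. Its highest level, 19.2 CPM in 30L, stood beside 12.2 CPM of summed keratins, and the tumor with the most keratin, 30R with 975 CPM, had the lowest Slurp1 of the responders. Because Slurp1, Ly6a, Ly6c1, Ly6c2 and Ly6i separated the 4 responder mice from the other 7, no correlation over all mice is given for them. Over the 7 other mice r of Slurp1 with the keratins was 0.451 (exact permutation p = 0.309, adjusted p = 0.421, Spearman rho = 0.393), and with group means removed over 11 mice it was 0.464 (exact permutation p = 0.0284, adjusted p = 0.106). With the keratin sum as a covariate in edgeR, Slurp1, Ly6a, Ly6c1 and Ly6c2 were still called higher in responders in both comparisons.

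As means per mouse outside the responders, Ly6c2 was lower where keratins were higher. Over the 7 mice outside the responders its r with the keratins was -0.901 (exact permutation p = 0.00119, adjusted p = 0.00893) and Spearman rho -0.964 (exact permutation p = 0.00278, adjusted p = 0.0192). Those 7 mice mix controls and non-responders, and with group means removed over all 11 mice r was -0.416 (exact permutation p = 0.299, adjusted p = 0.418). Counting each of 9 tumors as a point r was -0.63 (exact permutation adjusted p = 0.111). Without the 2 most extreme mice it was -0.959 over 5 mice (exact permutation adjusted p = 0.167). The keratin mean of mouse 14 joined 702 CPM in 14L and 7.56 CPM in 14R, where Ly6c2 was 15.7 and 20.4 CPM. The relation thus rests on mouse means and was weaker in single tumors. Ly6a had r = -0.746 (adjusted p = 0.0897), Ly6i -0.732 (adjusted p = 0.101) and Ly6c1 -0.55 (adjusted p = 0.298) over the 7 mice by exact permutation. Over 11 mice Ly6e had r = -0.58 by permutation (adjusted p = 0.101).

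Lists of cell type and response genes were set beside the members. Ly6g, at 0 to 5 counts, had r = 0.773 with the neutrophil list over 11 mice (permutation p = 0.00303, adjusted p = 0.0151, Spearman rho = 0.82, permutation p = 0.00385), and without the 2 most extreme mice 0.626 (exact permutation p = 0.0776, adjusted p = 0.25), so that its call rests on them. By permutation this r was 0.67 (adjusted p = 0.0802) with the summed list, 0.787 (adjusted p = 0.115) with group means removed and 0.831 (adjusted p = 0.00202) with each tumor as a point. The interferon gamma response list (12 genes, among them Irf1, Cxcl9 and Gbp2) and the monocyte list separated the responder mice from the others as well. Within the 7 other mice r was 0.793 between Ly6a and the interferon gamma list (exact permutation p = 0.0236, adjusted p = 0.0885), 0.773 for Ly6e (adjusted p = 0.0897), 0.417 for Ly6i (adjusted p = 0.442), 0.765 between Ly6c2 and the monocyte list (adjusted p = 0.0897), and -0.234 between Ly6c1 and the endothelium list (adjusted p = 0.691). With group means removed over all 11 mice r between Ly6a and the interferon gamma list was 0.96 (exact permutation p = 0.00376, adjusted p = 0.0282).

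Several of these lists moved with the groups. Of the 12 interferon gamma response genes 10 were called higher in responders than in non-responders and 9 higher than in controls, and their sum was between 1518 and 3346 CPM in responders, between 1033 and 1155 CPM in non-responders and between 667 and 1577 CPM in controls. Of the 10 T cell markers 9 and 10 were called higher, with a sum between 61.5 and 112 CPM in responders, between 34.2 and 42.7 CPM in non-responders and between 27.2 and 58.1 CPM in controls. Of the 10 monocyte markers 1 and 3 were called higher, with a sum between 1123 and 1229 CPM in responders, between 766 and 941 CPM in non-responders and between 724 and 923 CPM in controls. Of the 10 endothelium markers 0 and 3 were called higher, of the 6 tested B cell markers 3 and 3, of the 8 tested neutrophil markers 1 and 1, and of the 10 type I interferon genes 0 and 1. Over all genes tested 5.08% and 7.88% were called higher in these 2 comparisons, so 0 or 1 call in a list stands near those shares. The median log2 fold change was -0.29 and -0.11 for the neutrophil markers and 0.48 and 0.52 for the type I interferon genes. No marker in these lists was at 0 in every tumor of a group. In bulk tumors more cells of a type and more RNA per cell cannot be told apart, and the part of these cells in the members' differences was not tested.

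The genes nearest to each member over the 14 tumors were taken by Pearson correlation of log2 CPM, as a description, since all points share the group difference. Among those nearest to Slurp1 were Stom (r = 0.949) and Phactr1 (0.941). Cfb, complement factor B, was nearest to Ly6a (0.981), followed by Ly6c1 (0.978) and Ly6c2 (0.975). Gimap3 (0.982), Parp3 (0.981) and Cfb (0.980) were nearest to Ly6c1, and Epsti1 (0.988), Zbp1 (0.981) and Cxcl11 (0.977) to Ly6c2. Ly6e was nearest to Ccnd3 (0.937), Dnajb11 (0.931) and the immunoproteasome gene Psmb10 (0.926), and Ly6i to Ocel1 (0.939), Ms4a4d (0.928) and Zfp296 (0.920). Ly6d was nearest to the epidermal genes Sprr1a (0.989) and Sfn (0.986) and to 2310046K23Rik (0.979). Slurp1 was less close to the Ly6 members, with r of 0.83 to Ly6c1, 0.75 to Ly6a and 0.62 to Ly6c2.

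Of 40 other Ly6/uPAR genes listed, 34 were in the files and 13 passed the filter. One was called higher and one lower in responders, the same in both comparisons, and none between non-responders and controls. These 2 of 13 stand beside the 9.9% and 13.2% of all genes called in either direction. Lynx1, an anchored modulator of nicotinic receptors, was between 29 and 35 CPM in responders, between 12.9 and 23.6 CPM in non-responders and between 16.2 and 19.9 CPM in controls. Its responder tumors did not overlap the others, with a log2 fold change of 0.87 (SE 0.15, edgeR adjusted p = 0.00679) against non-responders and 0.89 (SE 0.14, edgeR adjusted p = 0.00154) against controls. Plaur, the urokinase receptor, was between 80.2 and 120 CPM in responders, between 152 and 181 CPM in non-responders and between 161 and 188 CPM in controls. It was lower in responders, with a log2 fold change of -0.79 (SE 0.11, edgeR adjusted p = 0.00313) and -0.93 (SE 0.10, edgeR adjusted p = 0.000282). Gpihbp1, the lipoprotein lipase anchor of capillary endothelium, was second to Plaur in mean TPM among these genes and above Lynx1, and its log2 fold change was -0.27 (adjusted p = 0.345) and 0.01 (adjusted p = 0.98) in edgeR. The median log2 fold change of the 13 genes was 0.23 against non-responders and -0.03 against controls.

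**Figure D5:**
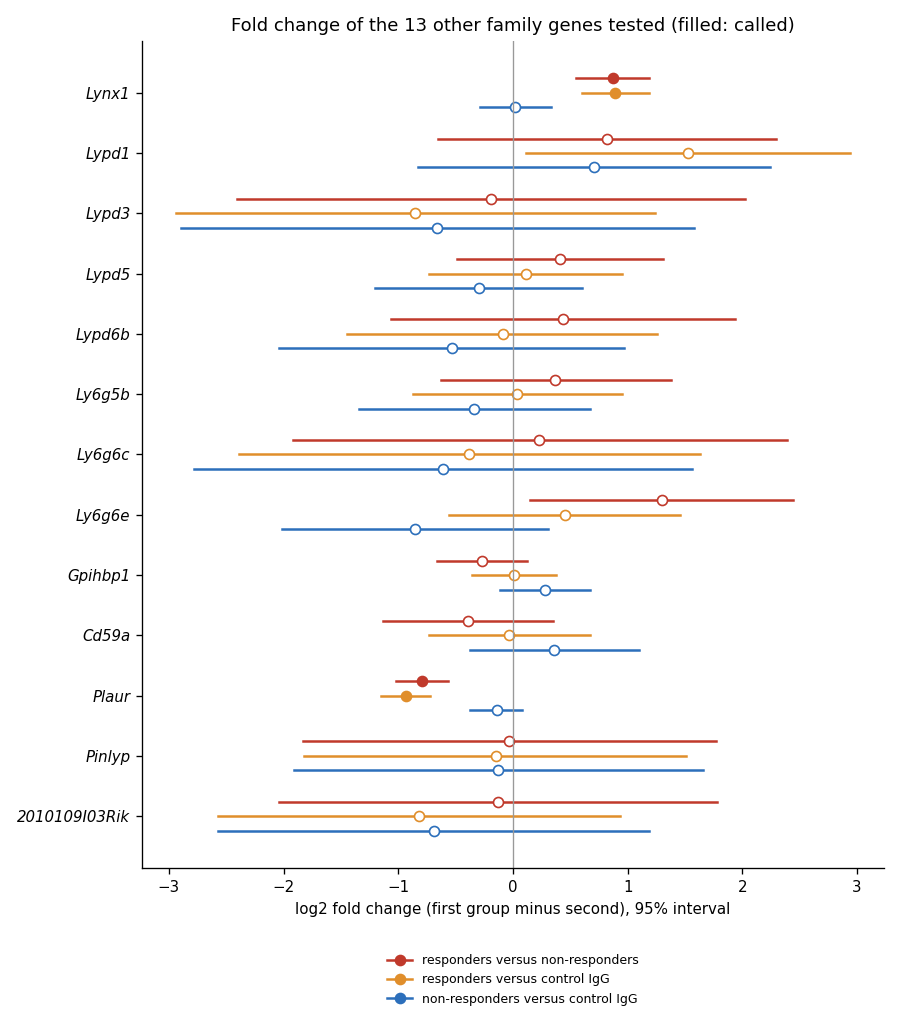
Log2 fold change (horizontal axis, first group minus second) with its 95% interval of the 13 other Ly6/uPAR genes tested, in 3 comparisons; filled points are called at an adjusted p under 0.05 by edgeR. Lynx1 lies at 0.87 and 0.89 and Plaur at -0.79 and -0.93 in the responder comparisons, and no other gene is filled.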

How the data were processed

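RNA-seq of 14 tumors was analysed from 1 deposited gene table per tumor. RNA was enriched with oligo(dT) beads, and per the labels the authors used STAR for alignment (mm10 build) and RSEM for gene quantification. RSEM divides reads that fit several genes by a model, so values of close copies are estimates. The deposited files hold expected counts (not whole numbers), TPM, FPKM and the mean transcript length per gene, and the authors' FPKM were not used. Identifiers were matched to GENCODE M21, 53620 of 53801 having a symbol.

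Expected counts were rounded and fitted with edgeR 4.0.16 (quasi-likelihood, TMM, filterByExpr, all 14 tumors and 3 groups), leaving 16287 genes; CPM use the same library sizes, and log2 CPM a prior count of 2. Benjamini-Hochberg adjustment was over all genes, and calls at 0.05. limma 3.58.1 and DESeq2 1.42.0 served as alternatives. No pair of tumors had equal counts in more than 1.69% of tested genes. Relations used mouse means, by exact permutation under 10 mice and 100000 resamples otherwise; where a measure separated responder mice, only the 7 others were used, a choice made after seeing the data. Fits and tests were tested on simulated data, drawn without a mouse effect, which cannot speak to likeness between tumors of the same mouse. Members and lists were chosen with earlier results of these data known. Named were the members, the 3 genes nearest to each tested member (mean log2 CPM of at least 0; 1 gene is not reported here), the other family genes called and the 3 with the highest TPM. Precision is limited by 4 or 5 tumors per group, from only 3 or 4 mice, not by depth, except for Ly6g, Ly6i and Ly6k. Limits from counts cover counting error only.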

Additional observations from a re-analysis of the deposited data

Results flagged for a closer look

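In groups of 4 or 5 tumors, 3 values stood apart from the rest of their group, of 30 combinations of a measure and a group examined, and chance alone flags about 1 in 20. Control tumor 14R was low in the summed skin keratins, its gap to the next tumor being 0.884 of the range of the group on the log2 scale, and low in Ly6d, with a gap of 0.755 of the range. Non-responder tumor 33R was low in the skin keratins, with a gap of 0.97 of a narrow range (134 CPM beside 280 to 287 CPM in the other 3). No tumor stood apart in this way for Slurp1, Ly6a, Ly6c1, Ly6c2, Ly6e or Ly6i.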

How the results depend on the processing

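No paired analysis was possible because the groups compared share no mouse. The other settings were DESeq2, its size factors in edgeR, no filter, voom with mouse as a random effect, 1 library per mouse, only the 2 groups, limma on log2(TPM + 1), a gene length trend removed and the keratin sum as a covariate. Under these 9 settings the number of members called was 4 to 6 against non-responders, 5 to 6 against controls and 0 between non-responders and controls. That of other family genes was 2 to 3, 2 and 0. The shares of all genes called in either direction were 4.05% to 18.3%, 6.03% to 19.2% and 0% to 0.0586%. With each tumor of the 2 groups compared left out, the number called was 2 to 5, 4 to 6 and 0 for members. The 2 arose without 24L, 30L or 32R against non-responders. For the other family genes it was 2, 2 and 0. The shares of all genes called were then 3.52% to 12%, 7.34% to 12% and 0%. Over all genes the 1612 calls against non-responders became 689 (4.34%) with only the 2 groups, 2499 (15.3%) with the keratin covariate, 2559 (9.37%) in DESeq2 and 2973 (18.3%) under voom. Ly6a and Ly6c1 were called in every one of these fits in both responder comparisons.

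Directions turned only where nothing was called. Ly6d against non-responders became 0.09 with the length trend removed and 0.11, 0.20, 0.22, 0.04 and 0.05 without 24L, 26R, 30L, 32R or 33L (range -1.20 to 0.22), and between non-responders and controls 0.25 under voom and 0.05 with the keratin covariate. Ly6e between those groups became 0.04 with 1 library per mouse and 0.07 without 14R (range -0.10 to 0.07). The keratin difference between non-responders and controls, 0.06, became -0.06 in TPM, -0.26 with mice averaged and ranged from -1.17 to 0.47 with a tumor left out, -1.17 being without 14R (-0.03, -0.04 and -0.04 without 29L, 32R or 33L); that between responders and non-responders ranged from -1.88 to -0.30 and that between responders and controls from -2.26 to -0.24. Of the keratin relations 2 passed, and 1 did with tumors as points, with group means removed or without the 2 most extreme mice. Of the relations to preset lists 1 passed, 0 with the summed list or without the 2 most extreme mice and 2 with tumors as points. The relation of Ly6k to the keratins became 0.0882 with tumors as points. The cause of these changes was not tested.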
